A study of Mus musculus with 6 samples.

Results

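ERVL and MaLR long terminal repeats are the remains of endogenous retroviruses, and here they are the regions of TERT CUT&Tag signal whose centre the authors' annotation places in such a repeat. Members were taken by the repeat named in that annotation: the class LTR with a family name starting with ERVL, on chromosomes 1 to 19 and X. There were 1242 members among 41515 regions. Of these, 983 carried the family name ERVL-MaLR, 257 the name ERVL and 2 the uncertain name ERVL?.

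The cells were primary neurons dissected from the cortex and hippocampus of C57BL/6 mouse embryos on days 15 to 18. CUT&Tag, a method that tethers a transposase to a protein through an antibody and sequences the DNA it tags nearby, was run with an antibody against TERT in 6 samples. Per the labels' treatment protocol, 3 samples received the vehicle DMSO and 3 received 2 µM BIBR1532, a small-molecule inhibitor of telomerase, for 24 h, while another label field calls the vehicle samples untreated. The 3 libraries of each condition were pooled before the lists were made, so each condition is 1 measurement with no replicate values, no test could be made between conditions, and no library without the TERT antibody is among the samples.

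The regions came in 3 lists: 16149 regions stronger in the BIBR1532 pool, 18554 stronger in the vehicle pool and 6812 common to both. The first list was taken as BIBR1532 from the order of the conditions in the name of the comparison, so the direction is likely and not stated outright. The first and second lists are called condition-specific. Intervals below are exact (Clopper-Pearson) 95% binomial intervals, which cover counting error only. The lists give no sequencing depth, which is therefore unknown.

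TERT is the catalytic subunit of telomerase and is itself a reverse transcriptase. An LTR is the repeated end of a retroviral element and carries promoter and polyadenylation signals, and most copies in the genome are solitary LTRs left after the internal part was lost by recombination. ERVL elements include MERVL, whose MT2 LTRs act as promoters in the early cleavage embryo. MaLR elements are relatives without retroviral genes of their own; the MT and ORR1 subfamilies are found in rodents, whereas MLT1 copies are older and shared by many mammals.

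Sequence was held for the members that overlap a RefSeq promoter window, which runs from 250 bases before to 50 after a gene's start (GRCm38.p6, the assembly behind mm10). Of 32851 windows, 6 overlapped a member, and 3 of these held the member's centre. Those 3 are shown because they are the members centred in a promoter window, 1 from each list, and all 3 genes are long noncoding RNAs. Capitals mark the bases inside the TERT region, and each sequence reads 5′ to 3′ on the gene's strand, here the plus strand.

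Gm30561 window, chr11:79305269-79305568, MLT1F, BIBR1532 list: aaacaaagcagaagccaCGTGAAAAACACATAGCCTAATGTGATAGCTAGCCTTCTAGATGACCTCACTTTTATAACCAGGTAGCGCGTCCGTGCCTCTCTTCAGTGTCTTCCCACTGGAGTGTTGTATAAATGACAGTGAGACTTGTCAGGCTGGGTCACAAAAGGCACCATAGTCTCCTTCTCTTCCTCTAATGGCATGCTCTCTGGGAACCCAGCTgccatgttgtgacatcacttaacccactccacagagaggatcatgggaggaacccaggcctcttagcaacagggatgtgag
Gm40376 window, chr12:32724478-32724777, MTD, common list: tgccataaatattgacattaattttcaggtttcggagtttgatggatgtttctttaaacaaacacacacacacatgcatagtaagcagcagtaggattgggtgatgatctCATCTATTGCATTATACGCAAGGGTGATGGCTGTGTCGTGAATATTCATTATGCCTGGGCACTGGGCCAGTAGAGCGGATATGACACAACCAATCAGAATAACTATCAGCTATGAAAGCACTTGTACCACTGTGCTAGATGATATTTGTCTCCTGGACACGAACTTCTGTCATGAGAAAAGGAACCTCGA
9330198N18Rik window, chr2:30629309-30629608, MLT1B, vehicle list: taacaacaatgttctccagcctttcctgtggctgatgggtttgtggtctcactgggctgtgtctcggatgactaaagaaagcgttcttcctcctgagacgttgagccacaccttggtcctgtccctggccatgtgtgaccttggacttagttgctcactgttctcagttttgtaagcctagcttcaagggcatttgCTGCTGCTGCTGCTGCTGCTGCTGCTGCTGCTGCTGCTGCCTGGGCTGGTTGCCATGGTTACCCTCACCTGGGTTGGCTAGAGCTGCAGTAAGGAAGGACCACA

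The BIBR1532 region at Gm30561 was 202 bp wide with a score of 3.79 and lay wholly inside the window, at positions 18 to 219, with its centre 133 bp before the start and its end short of it. The common region at Gm40376 covered the last 190 bases of the window, positions 111 to 300, with its centre 18 bp past the start. At 9330198N18Rik the vehicle region, with a score of 6.36, covered the last 104 bases, and its covered stretch opened with 13 uninterrupted copies of CTG. The GC content of the windows was 49% for Gm30561, 41.3% for Gm40376 and 54% for 9330198N18Rik, against a median of 52.7% over all windows. They held 4, 6 and 3 CpG dinucleotides in that order, against a median of 7.

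The windows were searched on both strands for 4 motifs: AATAAA, the polyadenylation hexamer, TATAAA, the core of a TATA box, TTAGGG, the telomere repeat unit, and CACGTG, the E-box. Overlapping matches of different motifs were each counted. The Gm30561 window held TATAAA on the gene strand at position 127 and on the other strand at position 70, both within the TERT region, and CACGTG at position 16, across the region's left edge. The Gm40376 and 9330198N18Rik windows held none of the 4. Among all windows, 19.6% held AATAAA, 13.6% TATAAA, 10.6% TTAGGG and 7.15% CACGTG.

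The other 3 windows were covered from end to end by wide members centred outside them. They were those of Gm52530 (ORR1F, 3038 bp, BIBR1532 list), Gm36848 (MLT1K, 3497 bp, vehicle list) and Olfr1312, an odorant receptor gene and the only protein-coding one (MTB, 6466 bp, BIBR1532 list). By comparison, the 918 ERVK and ERV1 regions overlapped 1 window, the 2519 LINE-1 regions 8 and the 2647 SINE regions 9. The 1778 regions of other repeats overlapped 19, and the 32411 regions with no named repeat 6115. That last set holds every region annotated to a promoter, because the annotation names a repeat only for intron and intergenic regions. The window counts are therefore not like for like.

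Members were found almost entirely in the condition-specific lists. Of the 1242 members, 546 were in the BIBR1532 list, 686 in the vehicle list and 10, or 0.805% (interval 0.387 to 1.48), in the common list. Over all regions 16.4% were common. All members lay in introns or between genes, because the annotation names a repeat only for regions that it places in these classes, and among intron and intergenic regions of every kind 7.04% were common. The common share was 2.83% (1.86 to 4.12, 26 of 918) for ERVK and ERV1 LTRs, 5.04% (4.22 to 5.97, 127 of 2519) for LINE-1, 2.27% (1.73 to 2.91, 60 of 2647) for SINE and 8.61% (8.24 to 8.99, 1868 of 21706) for regions with no named repeat. The members' interval overlapped none of these intervals.

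**Figure D1:**
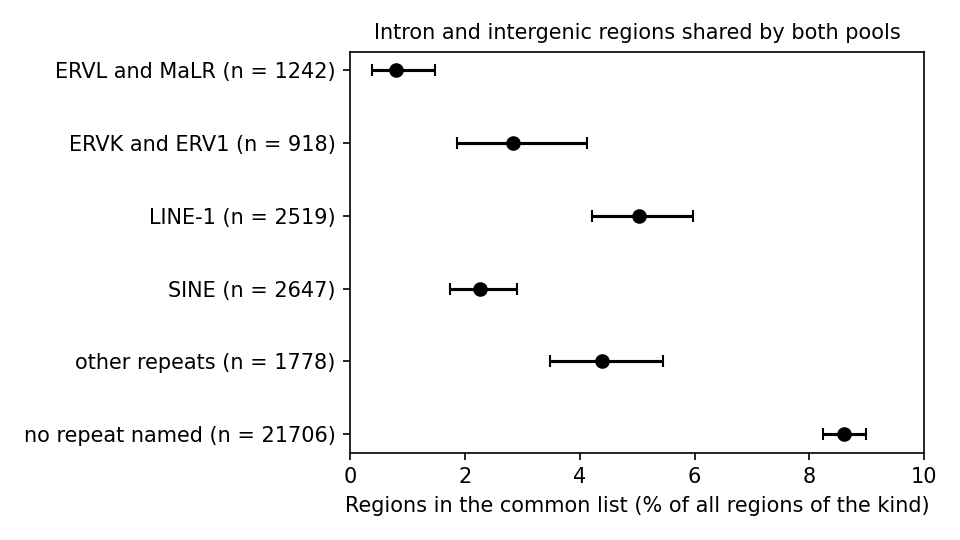
Percent of intron and intergenic regions found in the common list (horizontal axis) for each kind of repeat (vertical axis, with the number of regions). Points are shares and bars exact 95% intervals; ERVL and MaLR regions stand lowest at 0.805% and regions with no named repeat highest at 8.61%.

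The common share was also taken in subsets of regions. Each list has 1 most frequent score. Without the regions that stand at it in any of the 3 lists, the common share was 2.00% for members. For all other intron and intergenic regions it was 13.9%. That step took out 338 BIBR1532, 452 vehicle and 1 common member, which by itself raises the members' common share. At a width of at least 500 bp the common share was 0.362% for members against 4.33%. Beyond 10 kb from the nearest start site it was 0.784% against 5.07%. The common share of members was below that of the other regions combined in each of these subsets. By kind of repeat, members were not the lowest at 500 bp or more. There ERVK and ERV1 had 0 common, 90 BIBR1532 and 108 vehicle regions. Members had 1, 134 and 141 in that order, SINE 3, 202 and 224, and other repeats 2, 143 and 150. LINE-1 had 18, 320 and 325, and regions with no named repeat 188, 1455 and 1649. The part of signal strength in the difference from the other regions combined was not tested.

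The 10 common members were of 9 subfamilies. By score, they began with an RLTR28 copy in the first intron of F830045P16Rik (0.649), the MTD copy at the start of Gm40376 (0.551), which the authors' annotation assigns to Nampt, the enzyme of NAD salvage, 95.6 kb away, and an MLT1C copy 18.6 kb upstream of Rheb, the GTPase that activates mTOR (0.335). An MTC copy lay in intron 12 of 20 of Aff4, a scaffold of the elongation machinery of RNA polymerase II (0.257), and an MTD copy in an intron of Rabgap1l, a Rab GTPase-activating protein (0.113). The remaining 5 scored below 0.08. They were an MLT1A0 copy in the phosphate exporter gene Xpr1, an MLT1B copy 69.5 kb from Ppp2r2a, a regulatory subunit of protein phosphatase 2A, a MER68 copy in the calmodulin-dependent kinase gene Camk1d, an ORR1D2 copy in the matrix gene Tnxb, and an MTE-int copy in Pde6a, a rod phosphodiesterase gene. Scores in the common list run below 1 and are not comparable with those of the other lists.

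Between the condition-specific lists, members were split close to the background. The BIBR1532 list held 44.3% (41.5 to 47.1) of the 1232 condition-specific members, against 46.5% of all condition-specific regions and 46.6% (46.1 to 47.2) of those that are not members. The share was 44.1% (41.0 to 47.3) for ERVL-MaLR and 45.1% (38.9 to 51.4) for ERVL, and 45.4%, 45.9% and 46.3% for ERVK with ERV1, LINE-1 and SINE. Read as part of each list, members were 3.38% (3.11 to 3.67) of BIBR1532 regions, 3.70% (3.43 to 3.98) of vehicle regions and 0.147% (0.0704 to 0.270) of common regions. Regions of other classes than intron and intergenic cannot be members. Without those classes the shares were 4.11% (3.78 to 4.47), 4.46% (4.14 to 4.80) and 0.461% (0.221 to 0.846). On either count the intervals of the condition-specific lists overlapped each other, and neither overlapped that of the common list.

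The MT subfamilies of MaLR gave the most members, 413 in all. Of them, 171 were in the BIBR1532 list, 238 in the vehicle list and 4 in the common list, a BIBR1532 share of 41.8% (37.0 to 46.8). ORR1 elements followed with 354 members and a share of 48.2% (42.8 to 53.5), at 170 against 183. The older MLT1 elements gave 212 members at 42.6% (35.8 to 49.6), 89 against 120. All 3 intervals overlapped each other, and all 3 held the background of 46.5%.

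MERVL and its MT2 LTRs, the ERVL elements known from the 2-cell embryo, gave 77 members, 36 in the BIBR1532 list and 41 in the vehicle list, or 46.8% (35.3 to 58.5). None was common. The internal part MERVL-int was the centre of 4 BIBR1532 and 5 vehicle regions, MERVL_2A-int of 5 and 4. MT2_Mm, the LTR of the young MERVL copies, was at 2 BIBR1532 and 3 vehicle regions, while the older MT2A, MT2B1 and MT2B were at 10 and 11, 9 and 10, and 5 and 5. MLT2 LTRs gave 10 BIBR1532 and 12 vehicle regions, and all other ERVL subfamilies together 70 and 88.

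Of the 139 subfamilies, 17 had at least 20 condition-specific members and together held 679 members. MTD led with 49 BIBR1532, 54 vehicle and 2 common regions, followed by MTC with 31, 44 and 1, and ORR1E with 30, 27 and 0. In 12 of the 17 the vehicle list held more members and in 5 the BIBR1532 list did. The BIBR1532 share ran from 32% for MLT1B (8 against 17) to 54.5% for ORR1F (18 against 15), and the interval of each of the 17 included the background. MTE2b and RMER15 both had 13 against 24, and their intervals ran from 20.2% to 52.5%. ORR1A3, below the limit of 20 and singled out after its values were seen, had 7 vehicle regions and no BIBR1532 region.

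**Figure D2:**
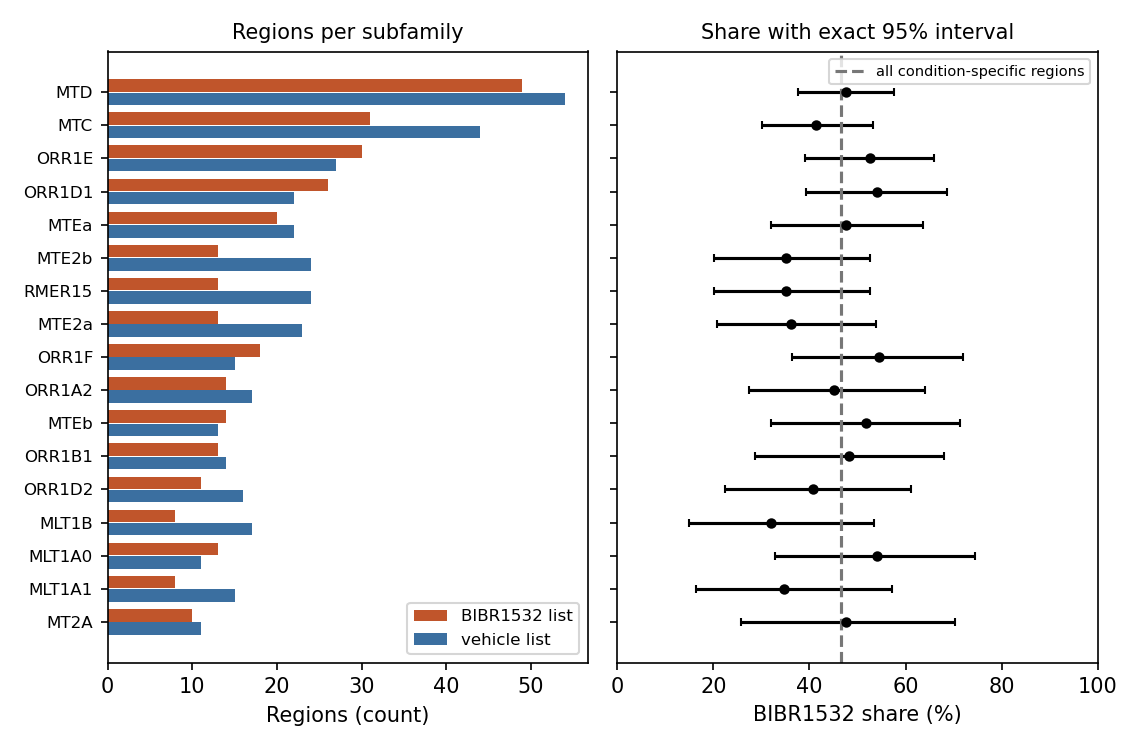
The 17 subfamilies with at least 20 condition-specific regions: region counts in the BIBR1532 and vehicle lists (left axis panel, count) and the BIBR1532 share in percent with exact 95% intervals (right panel). The dashed line is the share among all condition-specific regions, 46.5%, and every interval crosses it.

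Within the MT group, shares by lineage were 27.3% (10.7 to 50.2, 6 against 16) for MTA, 33.3% (18.0 to 51.8, 11 against 22) for MTB, 42.4% (31.7 to 53.6, 36 against 49) for MTC, 47.7% (38.1 to 57.5, 52 against 57) for MTD and 41.1% (33.4 to 49.2, 65 against 93) for MTE. The intervals of neighbouring lineages overlapped throughout, so these counts do not order them. The LTR itself was named at 1098 members and the internal part at 144, with BIBR1532 shares of 44.7% (41.7 to 47.7) and 41.3% (33.1 to 49.8). Introns held 25 of 36 MTE2a regions (69.4%) and 10 of 42 MTEa regions (23.8%), the extremes among the 17 subfamilies beside MLT1A0 at 24%.

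Member regions were somewhat wider at the median than intron and intergenic regions with no named repeat. The median width was 277 bp (interval of the median 255 to 306) in the BIBR1532 list and 279 bp (261 to 299) in the vehicle list, against 249 and 245 bp for intron and intergenic regions with no named repeat, the set used for width and score throughout. A width of at least 500 bp was reached by 134 BIBR1532 members (24.5%, 21.0 to 28.4) and 141 vehicle members (20.6%, 17.6 to 23.8). The same limit was reached by 15.8% and 15.5% of regions with no named repeat and by 29.2% and 25.1% of LINE-1 regions. For ERVK and ERV1 regions the values were 22.2% and 22.2%. Members of 2 kb or more numbered 26 and 31. The widest were both centred in ORR1D1 copies: a region of 6574 bp in the BIBR1532 list (chr14:104216619-104223192) and one of 12260 bp in the vehicle list (chr5:13725634-13737893), 59.9 kb from Speer3. The widest common member was the region at the RLTR28 copy, at 590 bp.

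The score is the authors' value for each region and was used only within a list. Many regions shared 1 value, 6.34 in the BIBR1532 list and 5.19 in the vehicle list. Of the members, 338 in the BIBR1532 list (61.9%, 57.7 to 66.0) and 452 in the vehicle list (65.9%, 62.2 to 69.4) stood at it, against 50.4% and 53.9% of regions with no named repeat and 62.3% and 68.6% of LINE-1 regions. ERVK and ERV1 regions stood at the same values in 59.5% and 59.8% of cases. Scores below that value were rarer among members, at 9.16% and 1.46%, than among regions with no named repeat, at 20.2% and 8.54%. They were also few in LINE-1 regions, at 9.02% and 2.78%, and in ERVK and ERV1 regions, at 10.6% and 2.67%. Above the most frequent score were 158 BIBR1532 members (28.9%) and 224 vehicle members (32.7%).

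**Figure D3:**
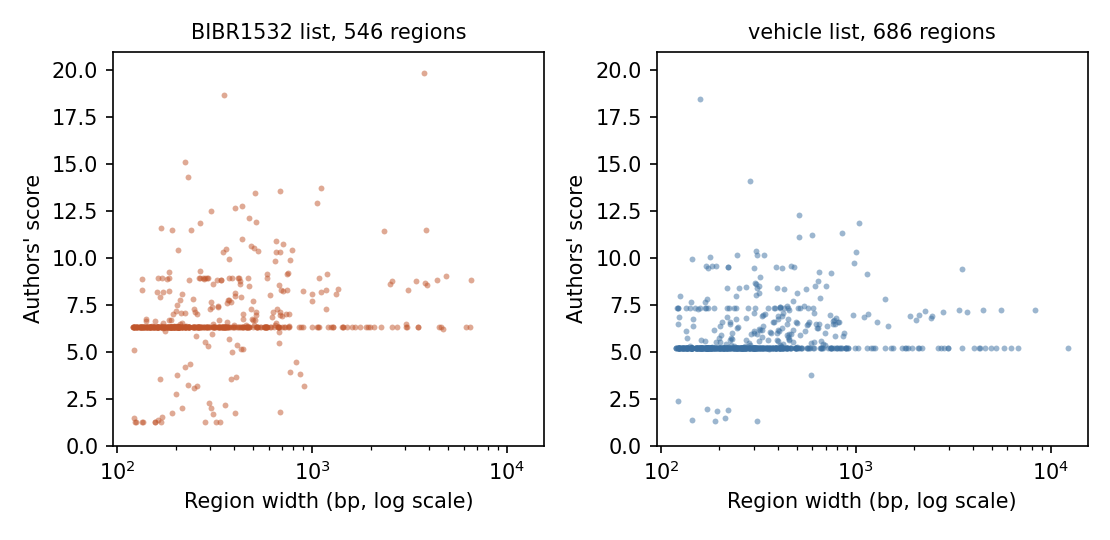
Region width (horizontal, bp, log scale) against the authors' score (vertical) for the 546 BIBR1532 members (left) and the 686 vehicle members (right), 1 point per region. The dense horizontal lines are the most frequent scores, 6.34 and 5.19, and the highest points are 19.9 and 18.5.

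The 5 BIBR1532 members of highest score were all centred in ORR1 elements between genes. ORR1 elements held 170 of all 546 BIBR1532 members and 183 of all 686 vehicle members. The next BIBR1532 scores, 13.6 at an MTC copy and 13.5 at an MTD copy, were close to the lowest of these 5. The top 5 of each list thus do not set the lists apart. Coordinates and widths are those of the TERT region, not of the repeat. A region of 3759 bp at an ORR1A4 copy, chrX:129416525-129420283, 331 kb from the formin gene Diaph2, scored 19.9, and an ORR1D2-int copy at chr6:58816577-58816930, 14.7 kb from the ubiquitin ligase gene Herc3, scored 18.7. They were followed by an ORR1B1 copy at chr14:109017933-109018155, 104 kb from Slitrk1, which encodes a synaptic adhesion protein (15.1), an ORR1E copy at chr16:46026647-46026878 near Plcxd2 (14.3) and an ORR1F copy at chr6:102054028-102055134 (13.7). The 5 vehicle members of highest score were of mixed origin. An ORR1C1 copy at chr5:24096687-24096845, 3.82 kb from Klhl7, an adaptor of a ubiquitin ligase, scored 18.5. An MLT1A0 copy at chr2:72693568-72693855 scored 14.1, and an ERVL-B4-int copy at chr14:65121425-65121934, 23.6 kb from the heparan sulfate enzyme gene Extl3, scored 12.3. An LTR16A copy at chr9:113567400-113568434, in intron 1 of 4 of the noncoding gene AU023762, scored 11.9, and an ORR1E copy at chr17:44117838-44118685 near Enpp4 scored 11.3.

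By the authors' annotation, most members lay far from gene starts. Of the condition-specific members, 740 (60.1%, 57.3 to 62.8) were intergenic and 492 intronic. The intergenic share was 65.6% for ERVK with ERV1, 65.3% for LINE-1, 45.8% for SINE and 42.7% for intron and intergenic regions with no named repeat. The median distance to the nearest start site was 43.1 kb (quartiles 15.1 and 120 kb), against 34.9, 78.4, 23.4 and 35.2 kb in the same order. By the annotated distance, 23 condition-specific members (1.87%) lay within 2 kb of a start, against 10.5% of regions with no named repeat. Other repeats were also low, at 2.24% for ERVK with ERV1, 0.920% for LINE-1 and 4.45% for SINE. The authors' annotation does not count the start of every RefSeq gene: the members at Gm30561, 9330198N18Rik, Gm52530 and Gm36848 are not among the 23. At the far end, 353 members (28.7%) were 100 kb or more away and 39 over 500 kb. By the authors' distance, the nearest was an MTE2b copy of the vehicle list, 426 bp inside the mitochondrial nuclease gene Exog, with a score of 8.04.

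**Figure D4:**
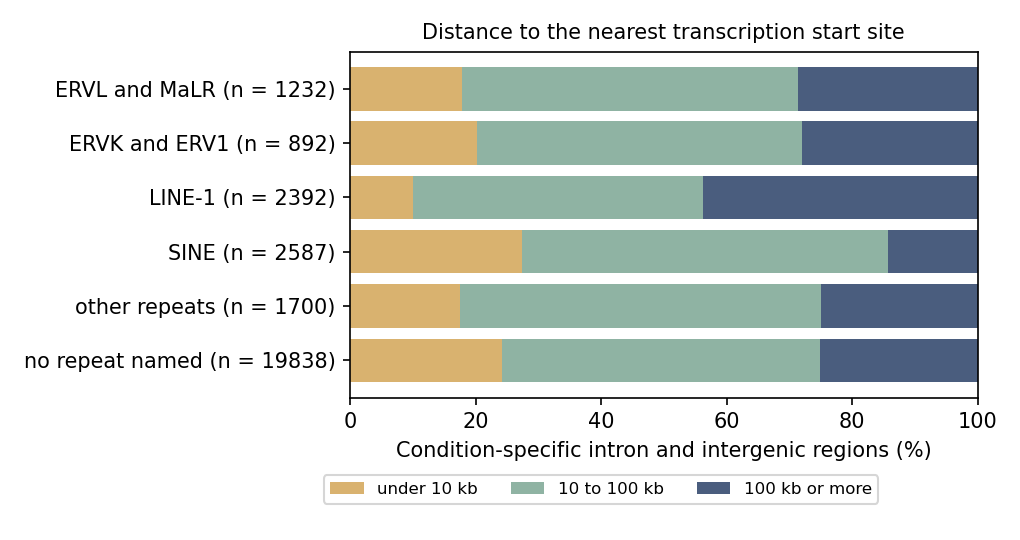
Share of condition-specific intron and intergenic regions (horizontal, percent) in 3 ranges of distance to the nearest transcription start site, for each kind of repeat (vertical, with the number of regions). ERVL and MaLR regions had 17.8% under 10 kb, 53.6% from 10 to 100 kb and 28.7% at 100 kb or more.

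The split between the lists was compared at matched distances. Within 10 kb of a start the BIBR1532 list held 116 members and the vehicle list 103, a share of 53.0% (46.1 to 59.7), against 50% (48.8 to 51.2) of all other intron and intergenic regions. From 10 to 100 kb it was 42.7% (38.9 to 46.6, 282 against 378) against 45.3% (44.5 to 46.1), and at 100 kb or more 41.9% (36.7 to 47.3, 148 against 205) against 45.6% (44.4 to 46.8). In each range the members' interval overlapped that of the other regions. The decline of the share from the nearest range was thus seen in members and other regions alike, and the intervals of the nearest and farthest ranges overlapped for members.

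**Figure D5:**
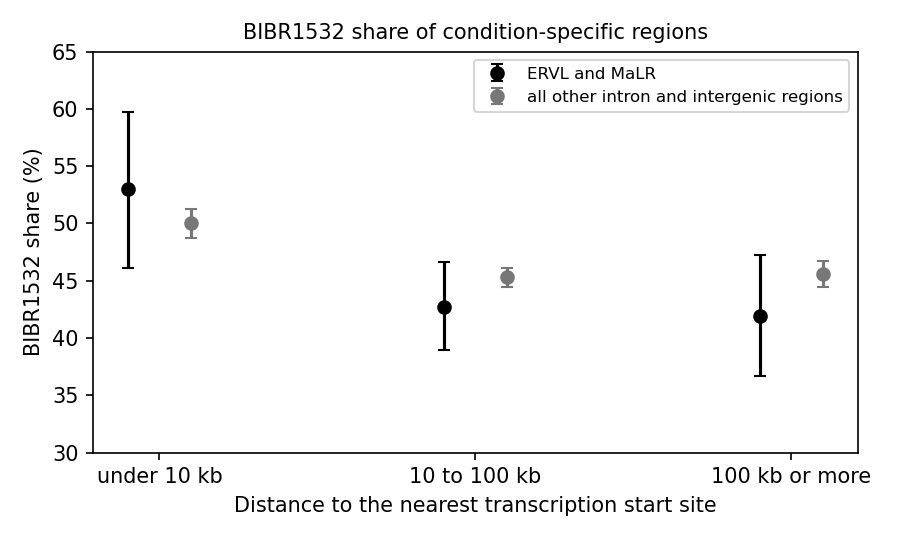
BIBR1532 share of condition-specific regions (vertical, percent, axis from 30 to 65) in 3 ranges of distance to the nearest start site (horizontal), for ERVL and MaLR regions (black) and all other intron and intergenic regions (grey), with exact 95% intervals. Members were at 53.0%, 42.7% and 41.9%, other regions at 50%, 45.3% and 45.6%.

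Along the genome, members made up 3.55% of all condition-specific regions, 2.85% (2.21 to 3.62) on chromosome 11, the lowest share, and 5.25% (4.17 to 6.50) on chromosome 14, the highest. Their BIBR1532 share was lowest on chromosome 19, at 10 against 23 or 30.3% (15.6 to 48.7), and highest on chromosome 14, at 44 against 34 or 56.4% (44.7 to 67.6). On X it was 9 against 19, or 32.1% (15.9 to 52.4). All 3 intervals included 46.5%.

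The lists seldom met at the same LTR neighbourhood. A vehicle region lay within 1 kb of 17 of 546 BIBR1532 members (3.11%, 1.82 to 4.94), against 5.12% (4.78 to 5.48) of other BIBR1532 regions. A BIBR1532 region lay within 1 kb of 10 of 686 vehicle members (1.46%, 0.701 to 2.66), against 4.51% (4.21 to 4.82) of other vehicle regions. A common region lay that close to 6 BIBR1532 members (1.10%) and 4 vehicle members (0.583%), against 8.71% and 7.80% of other regions. Those other regions include the ones annotated as promoters, a class that holds no members, and its part in these differences was not tested. In no case was a member of one condition-specific list within 1 kb of a member of the other.

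Intronic members fell in many genes, few of them more than once. Of 499 intronic members, 498 had a host gene in the RefSeq table, and these were spread over 456 genes, 30 with 2 members and 6 with 3. Nrxn3, a presynaptic neurexin gene of 1612 kb, had 3 vehicle members (MT2A, MTA_Mm and MTE2a) and no BIBR1532 member. Pak7, a p21-activated kinase gene of 307 kb, had 3 BIBR1532 members (LTR16E2, MLT1J2 and MTA_Mm) and no vehicle member. Ctnnd2, the delta-catenin gene, and Dab1, the adaptor of reelin signalling, had 2 BIBR1532 members and 1 vehicle member each, and Camta1 and Ptprn2 had 1 and 2. These counts of 3 are too small to set the lists apart: they were also the highest found, and were chosen by that count.

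Host genes of members had a median length of 158 kb, against 123 kb for the hosts of other condition-specific intron regions, counting a host once for each region. The first intron held 140 of the members (28.1%, 24.2 to 32.2), against 35.5% (34.7 to 36.3) of the others. The members here include the 7 intronic ones of the common list. Of the 14761 others, 11365 had no named repeat, and other kinds of repeat were not taken apart, so neither difference is shown to be particular to members. For 144 intronic members (28.9%) the nearest start site was that of a gene other than the host.

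By nearest start site, members named 1140 distinct genes, of which 1050 were named once, 9 were named 3 times and none 4 times or more. A protein-coding gene was nearest to 989 members (79.6%), against 83.4% of all regions. All regions include promoter and other classes that cannot be members, and their part in the difference was not tested. Among the 9, Hdgfl1, Olfm4 and Prr30 had 3 BIBR1532 members each and Nrxn3 3 vehicle members. The adhesion genes Cdh13 and Lsamp had 2 and 1, and 1 and 2.

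Neuronal cell adhesion genes, a list of 50, had a member inside them or nearest to them for 19 genes, 27 members in all. Of these 9 were in the BIBR1532 list and 18 in the vehicle list, a share of 33.3% (16.5 to 54.0). Counting only members for which one of these genes is nearest, 8 were in the BIBR1532 list and 15 in the vehicle list, or 34.8% (16.4 to 57.3). All regions nearest the same 50 genes had 218 in the BIBR1532 list and 286 in the vehicle list, or 43.3%. Members were 23 of the 527 regions nearest these genes (4.36%), against 2.99% of all regions. Among all condition-specific intron and intergenic regions they were 4.30% (4.07 to 4.54). Regions of other classes cannot be members, and their part in the difference was not tested. Beside Nrxn3, the vehicle members included 2 at Ncam1 and 1 each at Ncam2, Dscam, Opcml and Pcdh7. The BIBR1532 members included 1 each at Cntn1, Cntn5, Cdh18 and Lrrc4c.

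Genes linked to MERVL in the 2-cell embryo had few regions of any kind. Of 30 such genes 27 were in the RefSeq table, 11 regions were nearest to them, and 1 of these was a member, a vehicle region nearest Fgf1. Of the 52 regions nearest 30 genes of proteins that silence LTR elements, none was a member. Members were 2.99% of all regions, so 11 and 52 regions are too few to set either list apart from that share.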

How the data were processed

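TERT CUT&Tag regions of mouse primary neurons were taken from 3 deposited lists. Per the submitters' processing notes, the mm10 build, MACS2 2.1.2, Picard, Bowtie2 and CASAVA 1.8 were used, in roles not stated there. Per the file headers, regions were annotated with annotatePeaks.pl on mm10, and the lists came from pooled triplicates. The authors' deposited score of each region was used only within its list. The sources used here do not state how the pools were scaled or how reads matching several copies of a repeat were placed.

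Both condition-specific lists were decoded from a 7-bit text encoding. Members were selected by repeat class and family. Shares were given exact (Clopper-Pearson) intervals, tested on simulated data, and no test between conditions was made. Host genes and promoter windows came from RefSeq tables of GRCm38.p6. No genome was used, so sequence is shown only for promoter windows. The members and gene lists were chosen with earlier results of these data known. Named regions are the top 5 by score in the BIBR1532 and in the vehicle list, the widest in each list and all common ones. The rule for naming subfamilies was at least 20 condition-specific members. Outside that rule, the smaller MERVL and MT2 subfamilies, ORR1A3 and the subfamilies of single regions were also named. Genes nearest to 4 or more members were to be named, and none was; those with 3, and other genes named, were chosen after their counts were seen. Alternatives were score minimums of 2 and 3, removal of the most frequent score, widths of at least 500 bp, merging within 1 kb, base pairs, all contigs, certain family names only, LTR parts only, and distances over 10 kb. The software was scipy 1.17.1, numpy 2.4.6, matplotlib 3.10.9 and pandas 2.3.3 under Python 3.11.15.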

Additional observations from a re-analysis of the deposited data

How the results depend on the processing

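Of 51 values under alternative settings, 37 moved by less than the counting interval of the value as reported and 14 moved by more. The BIBR1532 share of members moved only at widths of at least 500 bp, to 48.7%, where all regions stood at 47.6%. Members were 3.55% of condition-specific regions, and 3.81% at scores of at least 2, 3.95% at scores of at least 3, 2.48% without the most frequent score of each list, 5.12% at widths of at least 500 bp, 4.60% of base pairs, 3.15% without internal parts and 4.38% beyond 10 kb of a start. Their intergenic share was 69.5% at widths of at least 500 bp and 68.9% of base pairs. Their median width was 278 bp, 376.5 bp without the most frequent score and 788 bp at widths of at least 500 bp. The common share, whose alternatives were added after seeing the data, was 2.00% without the most frequent score and 0.362% at widths of at least 500 bp. Filters on width and score change which regions are counted; beyond that, the cause was not tested.

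No paired analysis was possible because the lists were made from pooled triplicates and hold no values per replicate. The lists do not allow a replicate to be left out. Intervals cover counting error only, the depth of the pools is unknown, and LTR copies that resemble each other limit where reads can be placed.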
